A study of Homo sapiens with 12 samples.

Results

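TMPRSS2 and the ETS transcription factors ETV1, ERG, SPDEF, EHF, ELF3, ELK4 and ETS2 were followed in RNA-seq of LNCaP cells, an androgen-responsive human prostate cancer line. These 8 genes were chosen by name, as rows of a deposited table of 34643 genes. Of them, 7 passed the filter on low counts and ERG was listed at 0. The 12 libraries formed 4 groups of 3: cells with a scrambled shRNA and vehicle (shScramble −DHT), the same cells with 10 nM dihydrotestosterone (shScramble +DHT), and cells with an shRNA to TMEFF2 under vehicle (shTMEFF2 −DHT) or 10 nM DHT (shTMEFF2 +DHT). TMEFF2 encodes a transmembrane protein of prostate cells that the study silenced to ask how its loss alters the androgen response. Every group received a lentivirus that expressed its shRNA from the U6 promoter, puromycin selection, 24 h in charcoal-stripped serum and then 24 h of DHT or of ethanol, the vehicle. The sample records list 17 days with the shRNA, and 2.5 weeks after transduction, for every library. The repeats were independent hormone treatments of cells from 2 transductions, so each line stands for few infections, and which of the TMEFF2 shRNAs the sequenced cells carried is not given in the sources used here.

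Libraries held 19450866 to 22612046 estimated counts (median 21194622), and levels are given as CPM, estimated counts scaled to a common library size and corrected for composition by TMM. TMEFF2 itself, the target of the shRNA, was at 85.0 ± 16.0 CPM (SD, n = 3) in shScramble −DHT and 63.2 ± 21.7 in shTMEFF2 −DHT, and at 153 ± 31.4 in shScramble +DHT and 116 ± 26.03 in shTMEFF2 +DHT. The libraries of both lines overlapped at each DHT level and neither difference passed the test (adjusted p = 0.50 without and 0.30 with DHT, quasi-likelihood test of edgeR, Benjamini-Hochberg adjusted). The paper shows the silencing in LNCaP by other means, with Western blots in which some of its TMEFF2 shRNAs lowered the protein, and with TMEFF2 mRNA levels. Protein is not measured in these libraries, so the counts do not settle how far TMEFF2 was silenced. Luminal prostate markers were high in every library, with sums of 6054 to 6296 CPM in shScramble −DHT, 12020.0 to 12760.0 in shScramble +DHT, 3889 to 4322 in shTMEFF2 −DHT and 4837 to 5851 in shTMEFF2 +DHT. The basal keratin KRT5 was at 0 throughout, and summed fibroblast, endothelial and leukocyte markers stayed at or under 31.2, 29.5 and 12.6 CPM. The luminal sums were highest in shScramble +DHT, as TMPRSS2 and SPDEF were, and their part in those results was not tested.

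ETS factors are DNA-binding proteins that share a winged helix-turn-helix domain, the ETS domain, and recognize sites built around GGAA. TMPRSS2 encodes a type II transmembrane serine protease and is a classical androgen-induced gene of prostate epithelium. In a large share of prostate cancers a rearrangement joins the androgen-driven promoter of TMPRSS2, or of a similar gene such as SLC45A3, to an ETS gene, most often ERG and less often ETV1. LNCaP is known to lack the TMPRSS2-ERG fusion and to carry ETV1 moved into an intron of MIPOL1, near FOXA1. SPDEF, EHF and ELF3 belong to the epithelial branches of the family, ELK4 is a partner of serum response factor, and ETS2 is an effector of RAS and MAP kinase signalling.

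On GRCh38 (GENCODE v44), TMPRSS2 occupies chr21:41464300-41531116 on the minus strand, with 20 annotated transcripts of 217 to 4090 bp. ERG lies at chr21:38380027-38661780 on the same strand, 2803 kb away, and ETS2 at chr21:38805183-38824955 on the plus strand, 143.4 kb from ERG. ELK4 (chr1:205597556-205632011, minus strand) is separated from SLC45A3, which lies upstream of it on the same strand, by 25.84 kb. The other members are ETV1 (chr7:13891229-13991425, minus), SPDEF (chr6:34537802-34556333, minus), EHF (chr11:34621093-34663288, plus) and ELF3 (chr1:202007945-202017183, plus). The promoters of the 3 ETS genes whose level moved past the limits with DHT in shScramble cells are given here, so that the start regions of the genes that rose (ELK4 and SPDEF) and of the one that fell (ELF3) can be compared. Each runs from 250 bases before to 50 after the RefSeq start (GRCh38.p14), 5′ to 3′ on the strand of the gene: chr1:205631962-205632261 for ELK4, chr6:34556280-34556579 for SPDEF and chr1:202010337-202010636 for ELF3. Capitals mark the ETS core CCGGAA on either strand.
ELK4: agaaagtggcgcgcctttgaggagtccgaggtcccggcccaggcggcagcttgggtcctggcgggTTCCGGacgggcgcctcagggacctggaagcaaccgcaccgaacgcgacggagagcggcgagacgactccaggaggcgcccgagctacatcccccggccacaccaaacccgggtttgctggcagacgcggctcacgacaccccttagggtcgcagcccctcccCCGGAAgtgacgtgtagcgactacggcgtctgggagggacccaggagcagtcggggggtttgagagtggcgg
SPDEF: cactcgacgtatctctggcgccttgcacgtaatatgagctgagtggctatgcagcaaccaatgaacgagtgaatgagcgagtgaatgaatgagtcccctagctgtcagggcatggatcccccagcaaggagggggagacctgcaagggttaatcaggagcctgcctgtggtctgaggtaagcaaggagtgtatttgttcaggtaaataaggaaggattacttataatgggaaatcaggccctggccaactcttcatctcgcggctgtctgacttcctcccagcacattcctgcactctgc
ELF3: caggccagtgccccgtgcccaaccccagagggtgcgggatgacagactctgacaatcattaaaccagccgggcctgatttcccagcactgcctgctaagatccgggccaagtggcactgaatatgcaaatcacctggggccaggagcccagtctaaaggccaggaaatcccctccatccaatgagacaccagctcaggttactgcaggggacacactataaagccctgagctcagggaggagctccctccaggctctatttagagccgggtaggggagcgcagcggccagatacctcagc
The ELK4 window held 2 copies of CCGGAA, the SPDEF and ELF3 windows none, and 17.2% of 35116 promoter windows held at least 1. None of the 3 windows held AGAACA, the half-site of an androgen response element, which was in 14.8% of windows, or the full element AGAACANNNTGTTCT, which was in 0.00285%. In all, 7 of the 8 members had a window, and TMPRSS2 had no entry. These matches describe letters in the windows and were not tested for binding.

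In vehicle-treated shScramble cells 7 of the 8 members were detected, and per length EHF led. Divided by the length of the canonical transcript, the level in shScramble −DHT was 74.2 ± 3.53 CPM per kb for EHF (SD, n = 3), 45.3 ± 0.972 for ETV1, 41.4 ± 2.25 for TMPRSS2, 32.7 ± 1.69 for SPDEF, 19.8 ± 2.64 for ELF3, 12.4 ± 1.74 for ELK4 and 2.01 ± 0.0777 for ETS2. ETV1 and TMPRSS2 were the closest pair in this order, with ranges of 44.4 to 46.3 and 39.9 to 43.998 CPM per kb. These ranges do not settle which of them was higher. TMPRSS2 differed between the 2 columns deposited for a library, at 107 and 175 CPM in replicate 1, against 288 and 285 for ETV1. The divisor was also 1 transcript of the 21 annotated for ETV1 and of the 20 for TMPRSS2. ERG had 0 counts in all 12 libraries. A count of 0 allows up to 3 counts in a library, which is at most 0.154 CPM here, and this limit covers counting error only.

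TMPRSS2 rose with DHT in shScramble cells and was several-fold lower in shTMEFF2 +DHT than in shScramble +DHT, but its libraries were uneven. It stood at 139, 138 and 152 CPM in the shScramble −DHT libraries 1, 2 and 3, and at 800.0, 826 and 1735 CPM in shScramble +DHT. In shTMEFF2 cells it stood at 79.9, 189 and 174 CPM without DHT and at 110.4, 162 and 449 CPM with it. The shScramble groups were far apart, whereas 2 of the 3 shTMEFF2 +DHT libraries lay within the range of shTMEFF2 −DHT and only the library of replicate 3 lay above it. By group mean the order was shScramble −DHT (143 ± 7.76 CPM), shTMEFF2 −DHT (148 ± 59.1), shTMEFF2 +DHT (240.4 ± 182) and shScramble +DHT (1120.3 ± 533). Each of the 3 lower groups overlapped its neighbour in this order, and the highest did not. In bulk libraries fewer expressing cells and less RNA per cell cannot be told apart.

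In shScramble cells the DHT response of TMPRSS2 was a log2 fold change of 2.97 (SE 0.50, adjusted p = 0.00074, edgeR's quasi-likelihood test), or 7.84-fold. In shTMEFF2 cells it was 0.70 (SE 0.47, 95% interval −0.30 to 1.71, adjusted p = 0.37). With DHT, TMPRSS2 was lower in shTMEFF2 than in shScramble by 4.66-fold (log2 −2.22, SE 0.48, adjusted p = 0.0076), and without DHT the difference was 0.05 (95% interval −0.96 to 1.05, adjusted p = 0.98). Subtracting the response of shScramble from that of shTMEFF2 gave −2.27 (SE 0.66, adjusted p = 0.074), which did not pass 0.05. This depended on the setting: it passed with the replicate number as a block in the fit (−2.28, adjusted p = 0.012). It also passed with no filter on low counts (−2.26, adjusted p = 0.015). Without the library of shTMEFF2 +DHT replicate 3, the response in shTMEFF2 was −0.10 (adjusted p = 0.91), the difference between the lines with DHT was −3.02 (adjusted p = 0.00065) and the difference between responses passed (−3.07, adjusted p = 0.0074). Without the library of shScramble +DHT replicate 3, the highest for TMPRSS2, the difference with DHT was −1.76 (adjusted p = 0.030) and the difference between responses −1.80 (adjusted p = 0.16).

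The deposited table holds 2 columns for each library, summed here, and TMPRSS2 differed between them more than the other members did. In shScramble −DHT the first and second columns gave 107 and 175 CPM in replicate 1, 129 and 147 in replicate 2, and 118 and 189.8 in replicate 3. In shScramble +DHT they gave 793 and 807, 832 and 817, and 2288 and 1108. In shTMEFF2 −DHT they gave 54.2 and 108, 299 and 66.2, and 259.7 and 76.2, and in shTMEFF2 +DHT 110.7 and 109.9, 167 and 157, and 535 and 351. The high reading of shTMEFF2 +DHT replicate 3 was thus present in both of its columns, while the shTMEFF2 −DHT libraries disagreed with themselves, the first column being the higher in 2 of them and the second in the other. The ratio of the higher to the lower column ranged from 1.01 to 4.51 (median 1.57) and was over 1.5 in 7 of the 12 libraries. Among the other members the largest ratio in any library ran from 1.06 for EHF to 1.46 for ELF3. The root-mean-square log2 difference between columns was 0.971 for TMPRSS2 and had a median of 0.162 over 11156 genes at 5 CPM or more, of which 107 (0.959%) had a larger one.

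**Figure D1:**
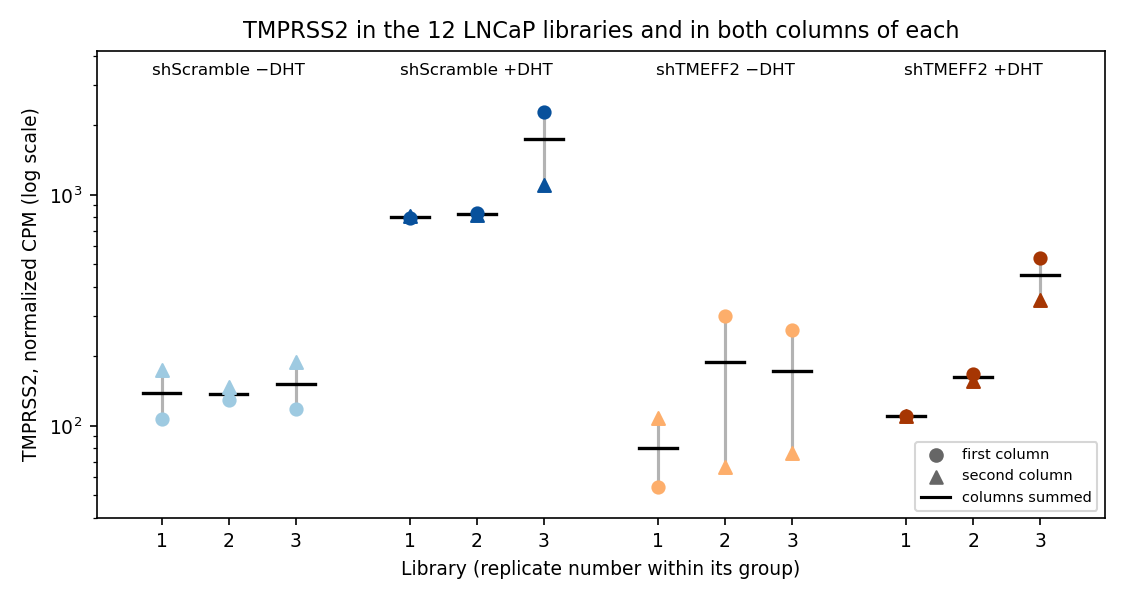
TMPRSS2 in normalized CPM (log axis) in each of the 12 libraries, with the first (circle) and second (triangle) deposited column and their sum (bar), 3 libraries in each of 4 groups. The columns nearly coincide in shTMEFF2 +DHT replicate 1 (110.7 and 109.9 CPM) and lie 4.51-fold apart in shTMEFF2 −DHT replicate 2.

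Used alone, the first column gave TMPRSS2 a DHT response of 3.47 in shScramble (adjusted p = 0.0031) and of 0.41 in shTMEFF2 (adjusted p = 0.75). The second column gave 2.40 (adjusted p = 0.00024) and 1.31 (adjusted p = 0.027), so with it the response in shTMEFF2 passed the limits. Its shTMEFF2 +DHT values lay above all shTMEFF2 −DHT ones, but the groups nearly touched. The lowest with DHT was 109.9 CPM and the highest without was 108.4 CPM. The difference between the responses was −3.07 (adjusted p = 0.095) with the first column and −1.09 (adjusted p = 0.26) with the second. What sets the columns apart for this gene was not tested. The lower level in shTMEFF2 +DHT than in shScramble +DHT passed with either column (log2 −2.27, adjusted p = 0.039, and −2.13, adjusted p = 0.0011).

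**Figure D2:**
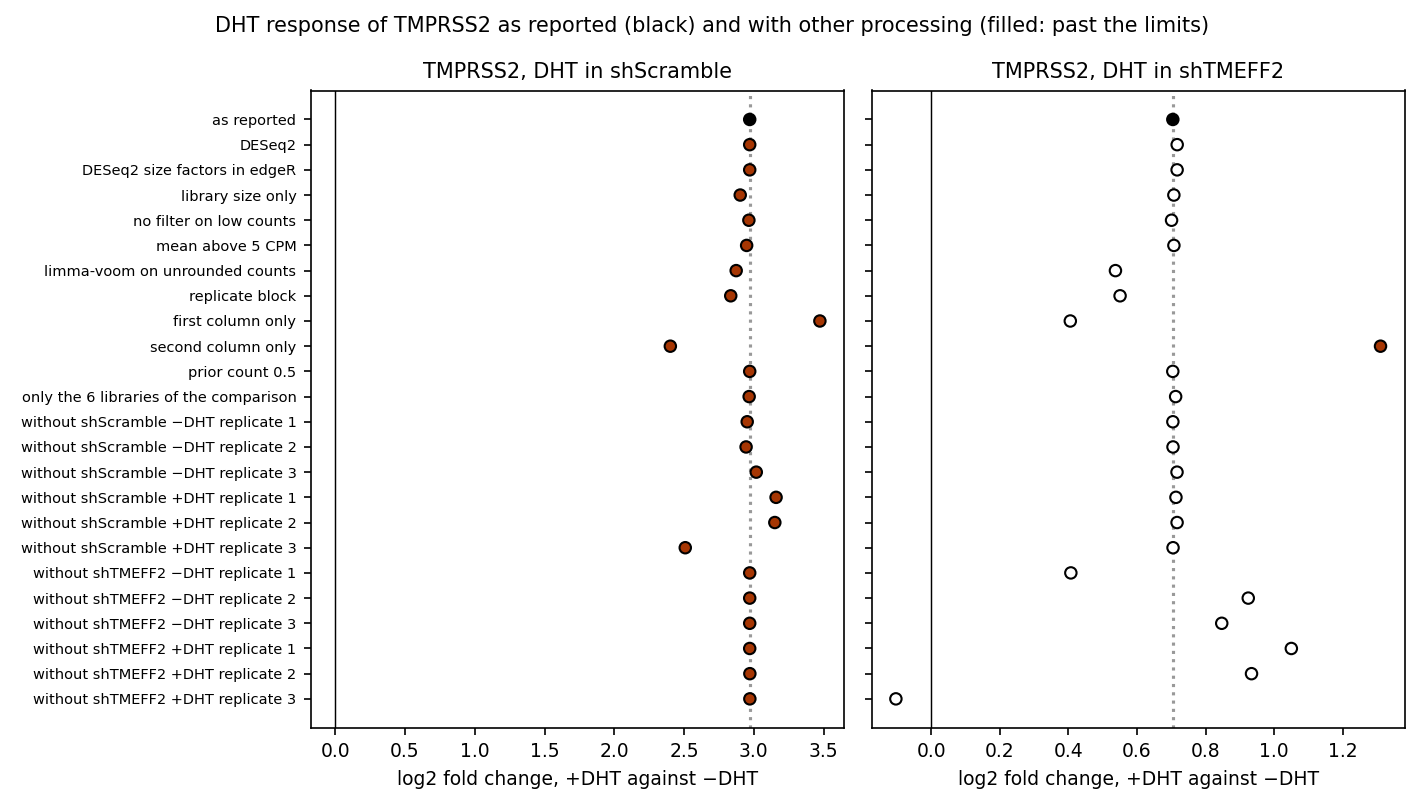
Log2 fold change of TMPRSS2 with DHT in shScramble (left) and in shTMEFF2 (right), as reported (black, dotted line) and under 23 other settings, filled where past the limits. The response lies between 2.40 and 3.47 in shScramble and between −0.10 and 1.31 in shTMEFF2.

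The ETS factors SPDEF and ELK4 rose with DHT in shScramble cells and responded less in shTMEFF2 cells. SPDEF, a prostate-derived factor of luminal and secretory epithelium, was at 59.3, 62.1 and 65.7 CPM in shScramble −DHT and at 151, 146 and 156 CPM in shScramble +DHT. In shTMEFF2 it was at 62.7, 60.2 and 71.9 CPM without DHT and at 73.0, 81.7 and 79.6 CPM with it. The groups of each line did not overlap, and the shTMEFF2 +DHT libraries all lay far below the shScramble +DHT ones. By mean, the order was shScramble −DHT (62.4 ± 3.22 CPM), shTMEFF2 −DHT (64.9 ± 6.13), shTMEFF2 +DHT (78.1 ± 4.54) and shScramble +DHT (151 ± 5.16), of which only the lowest pair overlapped.

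ELK4, which binds DNA with serum response factor, was at 125, 111 and 146 CPM in shScramble −DHT and at 271, 296 and 234 CPM in shScramble +DHT. In shTMEFF2 it was at 103, 110.4 and 104 CPM without DHT and at 124, 136 and 146 CPM with it. Here too the DHT groups of each line did not overlap, and shTMEFF2 +DHT (135 ± 11.3 CPM) overlapped shScramble −DHT (127 ± 17.9 CPM). The lowest group was shTMEFF2 −DHT (106 ± 4.06 CPM) and the highest shScramble +DHT (267 ± 31.6 CPM).

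The log2 response to DHT in shScramble was 1.27 for SPDEF (SE 0.077, adjusted p = 2.3e-07) and 1.07 for ELK4 (SE 0.11, adjusted p = 1.5e-05). In shTMEFF2 it was 0.27 for SPDEF (adjusted p = 0.038) and 0.35 for ELK4 (adjusted p = 0.047), past the adjusted p but under the fold limit of 1.5. Over 23 alternatives these adjusted p ran from 0.0077 to 0.15 for SPDEF and from 0.010 to 0.17 for ELK4, so passing 0.05 depended on the setting. The difference between the responses of the lines passed for both, at −1.01 for SPDEF (SE 0.11, adjusted p = 0.00034) and −0.71 for ELK4 (SE 0.15, adjusted p = 0.018). With DHT, shTMEFF2 cells had 1.93-fold less SPDEF (adjusted p = 7.1e-06) and 1.98-fold less ELK4 (adjusted p = 5.9e-05) than shScramble cells. Without DHT the differences were 0.06 for SPDEF (95% interval −0.11 to 0.22) and −0.27 for ELK4 (−0.50 to −0.04, adjusted p = 0.29).

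ELF3, an epithelial ETS factor, went the other way in shScramble cells. It was at 59.0, 70.7 and 55.0 CPM in shScramble −DHT and at 30.7, 42.0 and 36.9 CPM in shScramble +DHT, without overlap. In shTMEFF2 it was at 58.5, 76.9 and 52.1 CPM without DHT and at 54.5, 56.9 and 49.7 CPM with it, and these groups overlapped. ELF3 fell by 0.75 on the log2 scale in shScramble (SE 0.15, adjusted p = 0.0025), and its value in shTMEFF2 was −0.22 (95% interval −0.54 to 0.10, adjusted p = 0.38). The difference between the responses was 0.53 (SE 0.21, adjusted p = 0.20). With DHT it was higher in shTMEFF2 by 1.47-fold (adjusted p = 0.024), under the fold limit, which it passed with library size only (log2 0.61), with the second column only (log2 0.77), without shTMEFF2 +DHT replicate 3 (log2 0.62) and without shScramble +DHT replicate 2 (log2 0.68). Its order of means from shScramble +DHT (36.5 ± 5.65 CPM) over shTMEFF2 +DHT (53.7 ± 3.68) and shScramble −DHT (61.6 ± 8.19) to shTMEFF2 −DHT (62.5 ± 12.9) had overlap between all neighbours above the lowest.

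ETV1 and EHF were lower in shTMEFF2 than in shScramble with DHT by the adjusted p, though under the fold limit. ETV1, an oncogenic member of the family, was at 286, 291 and 299 CPM in shScramble −DHT, 370.4, 357 and 341 in shScramble +DHT, 211, 215 and 256 in shTMEFF2 −DHT and 232, 236 and 280.2 in shTMEFF2 +DHT. All shTMEFF2 libraries lay below all shScramble libraries, and within shTMEFF2 the DHT groups overlapped. The log2 difference of shTMEFF2 from shScramble was −0.51 with DHT (SE 0.085, adjusted p = 0.0014, 1.43-fold) and −0.36 without (SE 0.085, adjusted p = 0.071). Without the library of shTMEFF2 +DHT replicate 3, the difference with DHT was −0.59 (adjusted p = 0.00066) and passed the fold limit. DHT itself gave 0.29 in shScramble (adjusted p = 0.026) and 0.13 in shTMEFF2 (adjusted p = 0.35), and the difference between them was −0.15 (95% interval −0.41 to 0.11, adjusted p = 0.59).

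EHF, an epithelium-specific factor, was at 379, 415 and 408 CPM in shScramble −DHT, 515, 559.8 and 529 in shScramble +DHT, 304, 261 and 359 in shTMEFF2 −DHT and 379, 377 and 447 in shTMEFF2 +DHT. The DHT groups of each line did not overlap, and at each DHT level the shTMEFF2 libraries lay below the shScramble ones. The response to DHT was 0.42 in shScramble (SE 0.10, adjusted p = 0.0093) and 0.38 in shTMEFF2 (SE 0.10, adjusted p = 0.028), both under the fold limit. Their difference was −0.03, with a 95% interval of −0.35 to 0.28. Between the lines EHF differed by −0.41 with DHT (adjusted p = 0.015, and 0.0015 to 0.069 over 23 alternatives) and −0.38 without (adjusted p = 0.11).

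ETS2 was the lowest of the members tested, at 7.58, 7.52 and 7.06 CPM in shScramble −DHT, 7.40, 8.66 and 7.02 in shScramble +DHT, 5.95, 7.68 and 8.92 in shTMEFF2 −DHT and 4.86, 6.02 and 6.04 in shTMEFF2 +DHT. The shTMEFF2 +DHT libraries lay below both shScramble groups and overlapped shTMEFF2 −DHT. No comparison passed for it, and the adjusted p closest to 0.05 was 0.084, for shTMEFF2 against shScramble with DHT (log2 −0.44, 95% interval −0.80 to −0.09).

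**Figure D3:**
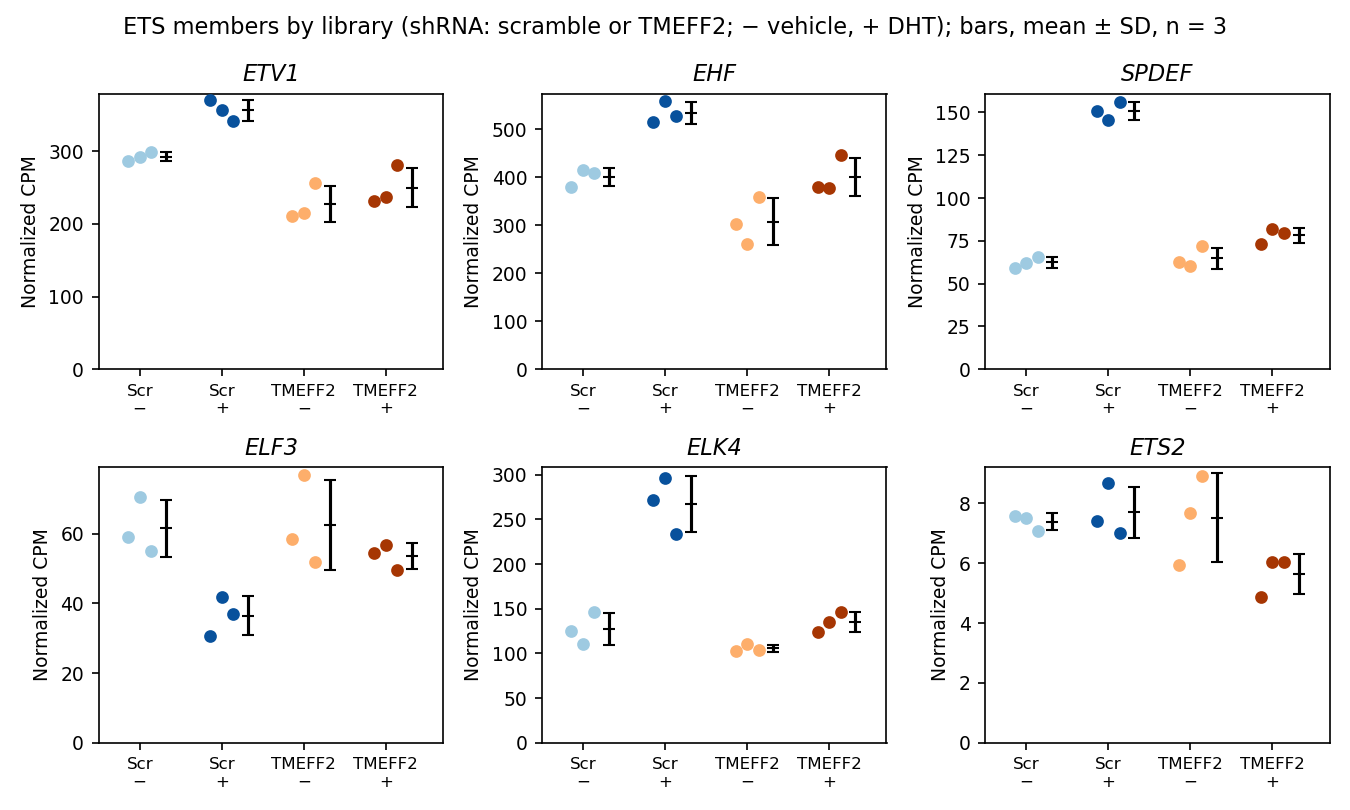
Normalized CPM of the 6 ETS members tested, on a linear axis from 0 for each gene, by library (points) with the mean ± SD of the 3 libraries (bars) in shScramble (Scr) and shTMEFF2 (TMEFF2) cells under vehicle (−) or DHT (+). SPDEF and ELK4 are highest in shScramble +DHT (151 and 267 CPM on average) and ELF3 is lowest there (36.5 CPM), while the shTMEFF2 libraries of ETV1 all lie below the shScramble ones.

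The limits were a 1.5-fold change and an adjusted p no higher than 0.05, adjusted across the 15419 genes tested, and for the difference between responses the adjusted p alone. With DHT in shScramble, 3 of the 7 members tested were higher (TMPRSS2, SPDEF and ELK4) and 1 was lower (ELF3), against a background of 5.45% of all genes higher and 6.45% lower. With DHT in shTMEFF2, 0 members passed by edgeR, DESeq2 or limma-voom, and the background was 3.28% higher and 1.6% lower. An unadjusted p under 0.05 was found for 4 of the 7 members and for 4188 of the 15419 genes. Between the lines without DHT, 0 passed by edgeR, DESeq2 or limma-voom, and the background was 0.298% higher and 0.272% lower. There, 3 of the 7 members and 2080 of the 15419 genes had an unadjusted p under 0.05. With DHT, 3 were lower in shTMEFF2 (TMPRSS2, SPDEF and ELK4), with a background of 3.03% higher and 3.74% lower. The difference between responses passed for 2 (SPDEF and ELK4), both lower, with a background of 1.65% higher and 3.29% lower. Median log2 values over the 7 were 0.42, 0.27, 0.02, −0.51 and −0.47 in these 5 comparisons, beside −0.01, −0.02, −0.004, 0.004 and 0.006 over all genes tested.

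**Figure D4:**
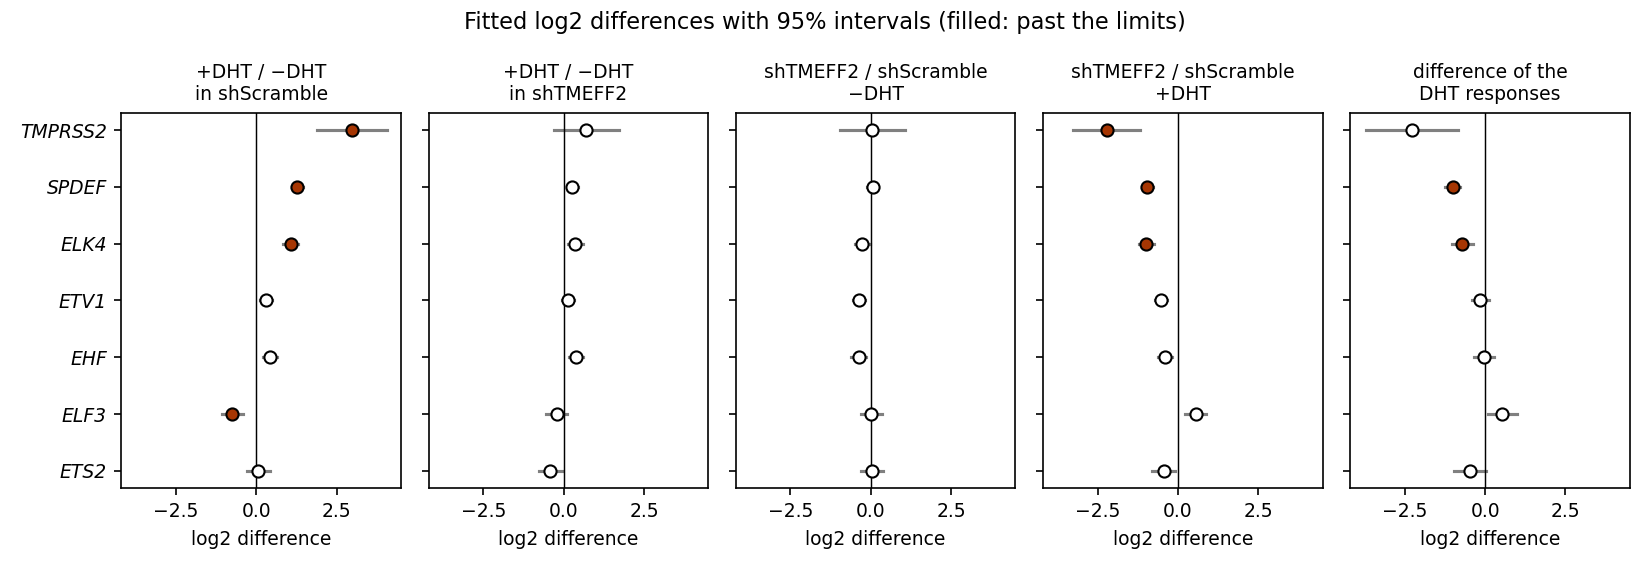
Fitted log2 differences with 95% intervals for the 7 members tested in the 5 comparisons, filled where past the limits. TMPRSS2 has the widest interval in each panel (SE 0.46 to 0.66), and SPDEF and ELK4 are the members filled in the last panel.

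Beyond the members, ETV6, ETV2 and ERF were the ETS genes past the limits. Of 28 family members in a list, 22 passed the filter, 16 of them not described so far, and 6 did not: ERG and ETV3L had 0 counts, and FEV, ETV4, SPI1 and SPIC reached at most 0.576, 0.54, 0.302 and 0.404 CPM in any library. With DHT in shScramble 3 of the 22 were higher (SPDEF, ELK4 and ETV2) and 2 lower (ELF3 and ETV6), beside 5.45% and 6.45% of all genes. ETV6, a transcriptional repressor of the family, was at 18.4, 18.2 and 21.9 CPM in shScramble −DHT and at 11.98, 11.4 and 12.3 CPM in shScramble +DHT (log2 −0.71, SE 0.11, adjusted p = 0.00056). In shTMEFF2 it was at 21.7, 20.1 and 18.4 CPM without and 17.3, 14.5 and 13.96 CPM with DHT (log2 −0.40, adjusted p = 0.037), and the difference between responses was 0.32 (adjusted p = 0.34). ETV2 stood at 1.04 to 2.26 CPM over all libraries and lay at the limit, with an adjusted p of 0.05, and it did not pass with DESeq2.

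With DHT in shTMEFF2, 0 of the 22 passed by edgeR, DESeq2 or limma-voom, beside 3.28% of all genes higher and 1.6% lower by edgeR. An unadjusted p under 0.05 was found for 5 of the 22 and for 4188 of the 15419 genes tested. Between the lines with DHT, 2 were lower (SPDEF and ELK4) and 1 was higher, beside 3.74% and 3.03% of all genes. The higher one was the repressor ERF, at 20.004, 20.8 and 18.1 CPM in shScramble +DHT and 37.9, 36.8 and 28.3 CPM in shTMEFF2 +DHT (log2 0.81, SE 0.21, adjusted p = 0.020). Its libraries without DHT ranged from 24.4 to 28.9 CPM in shScramble and from 18.7 to 39.4 CPM in shTMEFF2. GABPA, ELF1 and ELK1, broadly expressed members, had log2 values of 0.004, −0.15 and 0.04 with DHT in shScramble (adjusted p = 0.98, 0.12 and 0.74). ELF2, at a similar level, passed the adjusted p by edgeR but not the fold limit. It was higher with DHT in shScramble (log2 0.29, adjusted p = 0.023). With DHT it was lower in shTMEFF2 than in shScramble (log2 −0.28, adjusted p = 0.042), and the libraries overlapped in neither comparison. Median log2 values over the 22 were 0.02 with DHT in shScramble and 0.01 in shTMEFF2.

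**Figure D5:**
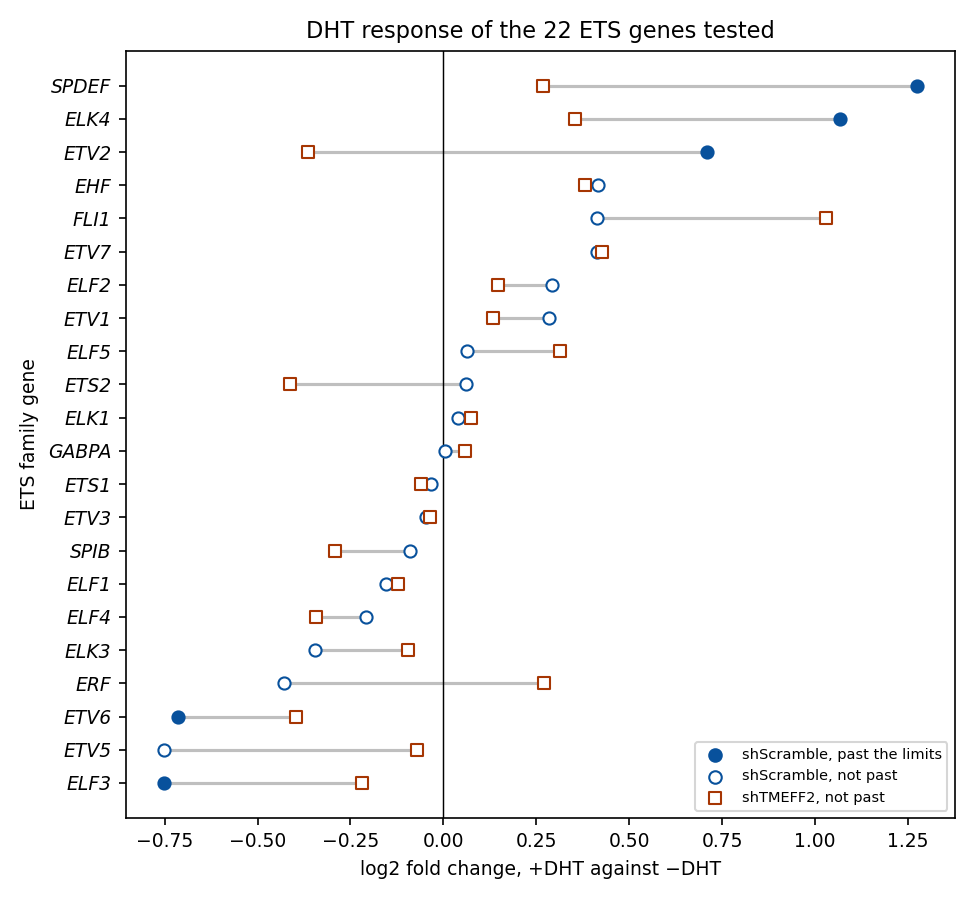
Log2 fold change with DHT in shScramble (circles, filled where past the limits) and shTMEFF2 (squares) for the 22 ETS family genes tested, ordered by the value in shScramble. SPDEF (1.27) and ELK4 (1.07) lead in shScramble, ELF3 (−0.75) and ETV6 (−0.71) lie at the low end, and 0 squares are past the limits.

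Proteins that act with ETS factors, such as serum response factor (SRF), partners of GABPA and ubiquitin ligase subunits that turn over ETV1 or ERG, had 0 of 8 past the limits in each of the 5 comparisons by edgeR, DESeq2 and limma-voom. Beside 0.272% to 6.45% of all genes in either direction by edgeR, 0 of 8 says little about these proteins. At an unadjusted p under 0.05 the count was at most 2 of 8, with DHT in shScramble, where it was 5970 of the 15419 genes tested. SRF ranged only from 33.5 to 39.5 CPM over the 12 libraries. Of 10 immediate early genes that SRF and ELK factors are known to drive, 9 were tested and 0 passed with DHT in shScramble. The shares of all genes there were 5.45% higher and 6.45% lower. In that comparison 4 of the 9 had an unadjusted p under 0.05, as did 5970 of the 15419 genes tested. EGR1 was lower with DHT in shTMEFF2 (log2 −1.34, adjusted p = 0.028, at 0.443 to 1.64 CPM, with no adjusted p from DESeq2), and NR4A1 was lower in shTMEFF2 than in shScramble with DHT (log2 −0.86, adjusted p = 0.011).

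Most genes known as upstream partners of ETS fusions rose with DHT in shScramble. Of 10 listed, 7 were higher with DHT in shScramble (TMPRSS2, SLC45A3, KLK2, ACSL3, NDRG1, HERPUD1 and CANT1) and 3 in shTMEFF2 (SLC45A3, KLK2 and ACSL3), with medians of 1.29 and 0.23 on the log2 scale, beside 5.45% and 3.28% of all genes higher in these comparisons. All 7 were lower in shTMEFF2 than in shScramble with DHT, and the difference between responses passed for 5, all lower, beside 3.74% and 3.29% of all genes lower. SLC45A3, a solute carrier of prostate epithelium and the neighbour of ELK4, was at 72.2, 63.9 and 73.1 CPM in shScramble −DHT, 545, 467 and 591 in shScramble +DHT, 56.2, 48.7 and 59.2 in shTMEFF2 −DHT and 137, 169 and 176 in shTMEFF2 +DHT. Its response was 2.94 in shScramble (adjusted p = 1.8e-08) and 1.55 in shTMEFF2 (adjusted p = 1.9e-05), with a difference of −1.38 (adjusted p = 0.00051). Reads that run from SLC45A3 into ELK4 were not counted apart in the deposited table, so their part in the ELK4 level was not tested.

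KLK2, a kallikrein protease, separated the lines already without DHT. It was at 269.9, 219 and 266 CPM in shScramble −DHT and 33.1, 20.7 and 44.2 CPM in shTMEFF2 −DHT, and it was the single partner lower in shTMEFF2 without DHT (log2 −2.95, adjusted p = 5.3e-05). Its response to DHT was 2.51 in shScramble and 2.80 in shTMEFF2 (adjusted p = 5.6e-06 and 5.0e-05), and the difference between them was 0.29 (SE 0.31, adjusted p = 0.71). For NDRG1, a stress-induced gene, the response was 1.70 in shScramble (adjusted p = 0.00011) and 0.22 in shTMEFF2 (adjusted p = 0.56), with a difference of −1.48 (adjusted p = 0.016).

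Among type II transmembrane serine proteases 11 of 17 were tested. With DHT in shScramble TMPRSS2 and TMPRSS11E were higher, beside 5.45% of all genes. TMPRSS11E was at 1.30 to 4.54 CPM in the 6 libraries (log2 0.98, adjusted p = 0.038, not past the limits with limma-voom). Between the lines with DHT, TMPRSS2 and hepsin (HPN) were lower in shTMEFF2 and TMPRSS13 was higher (log2 0.76, adjusted p = 0.028). Of all genes, 3.74% were lower and 3.03% higher in that comparison. HPN was at 222, 177 and 238 CPM in shScramble +DHT and 132, 144 and 137 CPM in shTMEFF2 +DHT (log2 −0.62, SE 0.10, adjusted p = 0.0013). Its response to DHT was 0.15 in shScramble (adjusted p = 0.32), unlike the 2.97 of TMPRSS2. The inhibitors SPINT1 and SPINT2, which act on these proteases, had 0 of 2 past the limits in each comparison by edgeR, DESeq2 and limma-voom. Beside 0.272% to 6.45% of all genes in either direction by edgeR, 0 of 2 says little about them. Both had an unadjusted p under 0.05 with DHT in shTMEFF2, as did 4188 of the 15419 genes tested. Between the lines SPINT1 passed the adjusted p by edgeR but not the fold limit. It was higher in shTMEFF2 without DHT (log2 0.42, adjusted p = 0.026) and with DHT (log2 0.30, adjusted p = 0.018). SPINT2 had 0.02 and −0.08 there (adjusted p = 0.94 and 0.55).

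The interval that the TMPRSS2-ERG deletion removes in other tumours was expressed here in part. Of 17 genes listed from ERG to TMPRSS2, 14 were tested. With DHT in shScramble FAM3B and TMPRSS2 were higher and B3GALT5 and MX1 were lower, beside 5.45% and 6.45% of all genes. With DHT in shTMEFF2, 0 passed by edgeR and DESeq2 and 1 by limma-voom. The shares of all genes there by edgeR were 3.28% higher and 1.6% lower. At an unadjusted p under 0.05 there were 6 of the 14, and 4188 of the 15419 genes tested. FAM3B and B3GALT5 stayed under 2 CPM. Of 9 genes near ETV1 or near its known insertion site, 7 were tested and 0 passed in any comparison by edgeR, DESeq2 or limma-voom. Beside 0.272% to 6.45% of all genes in either direction by edgeR, 0 of 7 says little about them. At most 4 had an unadjusted p under 0.05, between the lines with DHT, where 4506 of the 15419 genes tested had one. FOXA1, a pioneer transcription factor, was at 370.4 to 448 CPM. MIPOL1 was at 111 to 142 CPM over the 12 libraries, with a log2 value of −0.17 with DHT in shScramble (adjusted p = 0.12), and DGKB, the gene next to ETV1, was at 15.9 to 24.6 CPM.

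The genes whose profile over the 12 libraries was most like that of TMPRSS2, by the smallest root-mean-square difference of centred log2 CPM among 11155 genes at 5 CPM or more, were FKBP5 (0.532), MAF (0.568), ACSL3 (0.569), IGF1R (0.574) and PMEPA1 (0.575), for a profile of TMPRSS2 with an SD of 1.39. The root-mean-square log2 difference between the 2 columns of TMPRSS2, 0.971, is another measure, without centring, and is not on this scale. The log2 DHT response of these 5 genes in shScramble, which the choice by profile used, was 2.11 to 3.38. FKBP5, a chaperone of steroid receptors, averaged 63.5, 661, 60.7 and 112 CPM in shScramble −DHT, shScramble +DHT, shTMEFF2 −DHT and shTMEFF2 +DHT. The genes most like ETV1 were CDC42EP2 (0.0816), TNK2 (0.0817), EPB41L4B (0.0829), SETD7 (0.0835) and UTRN (0.0847). Each averaged less in shTMEFF2 than in shScramble at both DHT levels, a difference that the choice by profile used. These likenesses are descriptions over libraries that share the same groups.

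Within shTMEFF2 +DHT, replicate 3 was the highest library for TMPRSS2, ETV1, EHF, ELK4 and ETS2 and replicate 2 for SPDEF and ELF3. Among the 840 genes raised by DHT in shScramble, replicate 3 was the highest of this group for 406 (48.3%), replicate 2 for 307 (36.5%) and replicate 1 for 127 (15.1%), against 33.2%, 32.1% and 34.8% over all genes tested. In shScramble +DHT replicate 3 was the highest for TMPRSS2, at 1735 CPM, but for only 195 (23.2%) of the same 840 genes. Whether the DHT response of these libraries set their TMPRSS2 level was not tested.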

How the data were processed

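RNA-seq of 12 LNCaP libraries, 75 bp paired-end, was analysed from a table the authors deposited. Per the study's methods, the authors checked the reads with FASTQC, filtered contaminants, trimmed with Trimmomatic and quantified transcripts with kallisto 0.42.3 on the GRCh38 transcriptome, and their own test was DESeq2. What the authors deposited are estimated counts by gene, scaled by transcript length and library size, so the share a gene gets depends on how reads were assigned to its transcripts. A strand setting is not given in the sources used here.

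The 24 columns, 2 for each library, were taken as repeat runs and summed, because the names of a pair differ only by a suffix. Sums were rounded and fitted with edgeR 4.0.16 (R 4.3.3): filterByExpr (minimum count 10, minimum total 15), TMM (factors 0.955 to 1.037) and the quasi-likelihood test on all 12 libraries with 1 coefficient per group, adjusted by Benjamini-Hochberg over 15419 genes. The common biological coefficient of variation was 0.131. Calls needed a fold of 1.5 or more and an adjusted p no higher than 0.05, as the study set them. Alternatives were DESeq2 1.42.0, limma-voom (limma 3.58.1), other normalizations and filters, each column alone, a replicate block, a prior count of 0.5, the 6 libraries of a comparison and each library left out. The statistics were tested on simulated counts.

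Named genes were the members, TMEFF2, every ETS family gene tested, genes of the other lists past the limits in at least 1 comparison, and the 5 genes most like TMPRSS2 and ETV1. FOXA1, MIPOL1, DGKB, SRF, SPINT1, SPINT2 and KRT5 were named in addition after their values were seen, to describe their lists. Members and lists were chosen with earlier results of these data known. RefSeq promoters of GRCh38.p14 and GENCODE v44 gave sequences and positions. Certain listed genes are left out of the text.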

Additional observations from a re-analysis of the deposited data

Results flagged for a closer look

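The DHT responses of 2 members differed between the lines by the interaction test over all genes (edgeR's quasi-likelihood test). For SPDEF the response in shTMEFF2 minus that in shScramble was −1.008 on the log2 scale (adjusted p = 0.000343), and over 22 alternatives it ran from −1.06 to −0.92, with adjusted p of 9.98e-15 to 0.00172. For ELK4 it was −0.7123 (adjusted p = 0.0181), with a range of −0.82 to −0.62 and adjusted p of 0.000429 to 0.0488. Each rose with DHT in shScramble in 3 of 3 libraries, all above the highest vehicle library.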

How the results depend on the processing

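Over the alternatives run, SPDEF and ELK4 kept their calls in all 5 comparisons, and so did TMPRSS2 for DHT in shScramble (2.40 to 3.47) and between the lines with DHT (−3.02 to −1.76). Several values that passed the adjusted p under the fold limit were less stable. Their highest adjusted p was 0.148 for SPDEF, 0.169 for ELK4 and 0.118 for EHF with DHT in shTMEFF2. It was 0.0857 for ETV1 with DHT in shScramble and 0.202 for ELF3 between the lines with DHT. With the second column only, 1 member passed for DHT in shTMEFF2, TMPRSS2 (1.31, adjusted p = 0.0268). TMPRSS2 between the lines without DHT changed sign with limma-voom (−0.04479), the replicate block (−0.04977) and the second column (−1.043). Its difference between responses passed with no filter on low counts (−2.264, adjusted p = 0.0149), where the members past the limits were 3, and with the replicate block (−2.284, adjusted p = 0.0119), where they were 4 with ELF3 added (0.549, adjusted p = 0.0329). Leaving out 1 library at a time gave TMPRSS2 −0.1029 to 1.05 for DHT in shTMEFF2, −0.173 to 0.3445 between the lines without DHT and −3.074 to −1.804 for the difference of responses, and gave 3 to 5 members past the limits between the lines with DHT, the 5 without shTMEFF2 +DHT replicate 3 including ETV1 and ELF3, and the 22 ETS genes then also had 5 past the limits. Without shTMEFF2 −DHT replicate 3, 1 ETS family gene passed for DHT in shTMEFF2. Uncalled values near 0 changed sign: ETS2 for DHT in shScramble with library size only (−0.006663) and the first column (−0.1297), ELF3 without DHT with the first column (−0.01324), and EHF for the difference of responses with library size only (0.03267), and with 1 library left out ETS2 for DHT in shScramble (−0.02843 to 0.1247), ETS2 without DHT (−0.1064 to 0.1687), ELF3 without DHT (−0.1551 to 0.1444), SPDEF without DHT (−0.01468 to 0.1098) and EHF for the difference (−0.1407 to 0.09823). ELF3 between the lines with DHT passed the fold limit with library size only (0.6125) and the second column (0.7706). Scaling moved the median of all genes by under 0.1. Same-numbered libraries of different groups had correlations of −0.00172 to 0.169, over 0.1 in 3 of 18 pairs, and a library's best match in another group had its own number in 33 of 36 cases, a hint of shared sets from the data and not from the design. The limit for pairing, every correlation over 0.1, was not met, so the fit without the block was kept as the main one. Of the members, TMPRSS2 was measured least precisely (SE 0.46 to 0.66). The cause of these shifts was not tested.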
